A study of Mus musculus with 3 samples.

Results

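The integrated stress response (ISR) genes Atf4, Ddit3, Trib3, Asns, Chac1, Sesn2, Ppp1r15a, Ddit4, Xbp1 and Eif2ak3 were followed in the RNA of apoptotic bodies (ABs), the membrane-bound fragments shed by dying cells, from 3 stages of mouse osteoclast differentiation. Members were taken by GENCODE M21 gene symbol from the deposited mRNA table, and the reads of each gene's transcripts were summed. All 10 had rows and all 10 reached 20 reads over the 3 libraries, out of 15861 genes in the table and 12713 with 20 reads or more. Their reads were spread over 28 listed transcripts.

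Bone marrow of C57BL/6 mice at postnatal week 11 was cultured with M-CSF, the growth factor that keeps macrophages alive, at 50 ng/mL for 72 h to give bone marrow macrophages (BMMs), and the ABs of these cells are called BMM-ABs. Preosteoclasts (pOCs) and mature osteoclasts (mOCs) were derived from BMMs with M-CSF at 30 ng/mL and RANKL, the cytokine that drives osteoclast formation, at 100 ng/mL, for 24 h in pOCs and for at least 72 h in mOCs, and their ABs are pOC-ABs and mOC-ABs. According to the labels, apoptosis was induced in every group with alendronate, a bisphosphonate, at 500 μM for 12 h, whereas the study's methods name staurosporine and a longer RANKL time for mOCs. The sample titles name cells and the series describes ABs, and the libraries are treated here as ABs. Each group is 1 library with no replicate, and nothing states how many animals or cultures went into it, so no test of a condition was possible and every interval below covers counting error only. The BMM-AB library had 9100082 mRNA reads, the pOC-AB library 7387317 and the mOC-AB library 7705592, and levels are given as rpm, the reads scaled to 1000000 mRNA reads, unless FPKM, which also divides by length, is named.

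The ISR starts when a kinase phosphorylates the translation factor eIF2α, which lowers protein synthesis in general while the mRNA of the transcription factor ATF4, through upstream reading frames in its leader, is translated more. ATF4 pairs with C/EBP proteins or with CHOP, the product of Ddit3, and binds composite C/EBP-ATF elements in genes of amino acid supply, redox balance and apoptosis. The kinase PERK (Eif2ak3) connects the ISR to the endoplasmic reticulum (ER), where the separate sensor IRE1 splices the mRNA of XBP1. The study set up 3 comparisons, in which pOC-ABs are compared with BMM-ABs (G1), mOC-ABs with BMM-ABs (G2) and mOC-ABs with pOC-ABs (G3), and they share libraries with each other. Where 3 values follow each other without a name, they stand in the order of differentiation, from BMM-ABs to mOC-ABs.

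Promoter sequence is shown for the members whose RefSeq promoter on GRCm38.p6, from 250 bases before to 50 bases after the gene start, held a composite or cAMP response element, because the ISR acts on its targets through such sites. The composite core was searched as TGATGNAA and the cAMP response element as TGACGTCA, on both strands. Each window below is 30 bases on the strand of the gene with the matching 8 bases in capitals, and in Chac1 and Trib3 the capitals are the core read on the opposite strand. The windows lie at chr2:119351038-119351067 on the plus strand for Chac1, and on the minus strand at chr2:152344028-152344057 for Trib3, chr6:7693214-7693243 for Asns and chr7:45526262-45526291 for Ppp1r15a.
Chac1: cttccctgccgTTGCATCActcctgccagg
Trib3: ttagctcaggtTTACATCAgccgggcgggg
Asns: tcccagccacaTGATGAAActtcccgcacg
Ppp1r15a: cgcctctccggTGACGTCAgcacagcgccg

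The composite core was found in 3 of the 10 member promoters, against 1304 of 32851 RefSeq promoters of the same length (3.97%). It started 193 bases before the RefSeq gene start in Chac1, 23 bases before it in Asns and 15 bases after it in Trib3. The RefSeq start differs from the starts of the GENCODE transcripts that were counted. By those, the Trib3 match lies before Trib3-201, and the Asns match lies within the span of Asns-201 and before Asns-202. The cAMP response element was found in Ppp1r15a alone among the members, starting 12 bases before the gene start, and in 1.79% of all promoters. The ER stress response element, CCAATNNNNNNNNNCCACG, was found in none of the 10 and in 0.119% of all promoters. A longer stretch is shown for Chac1, a gene with a single listed transcript and a match far from its start, as the 237 bases at chr2:119350992-119351228 that end at the base before Chac1-201, with the same 8 bases in capitals.
Chac1 upstream: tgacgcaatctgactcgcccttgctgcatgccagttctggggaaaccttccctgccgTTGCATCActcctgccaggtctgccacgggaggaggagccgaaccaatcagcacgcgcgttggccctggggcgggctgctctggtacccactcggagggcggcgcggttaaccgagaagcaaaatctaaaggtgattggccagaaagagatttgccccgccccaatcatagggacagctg

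As a group, the ISR genes were lower in mOC-ABs than at either earlier stage. Together the 10 genes held 12524 reads (1376 rpm) in BMM-ABs, 9643 reads (1305 rpm) in pOC-ABs and 5436 reads (705 rpm) in mOC-ABs. The level was lowest in mOC-ABs for 8 members and lowest in pOC-ABs for Xbp1 and Eif2ak3. It was highest in BMM-ABs for 8 members and highest in pOC-ABs for Atf4 and Asns. Counting error did not resolve the order of BMM-ABs and pOC-ABs for Atf4, Ddit3 and Ddit4. Nor did it resolve that of pOC-ABs and mOC-ABs for Eif2ak3. The share of all genes with these orders was not computed, so the order counts have no background. For single comparisons, 54.6% of 12713 genes were lower in mOC-ABs than in BMM-ABs, against all 10 members. Likewise 54.4% were lower in mOC-ABs than in pOC-ABs, against 8 members. In RNA from a bulk preparation of ABs, fewer ABs from a cell type and less of an RNA per AB cannot be told apart. The levels are those of ABs and were not measured here in the parent cells.

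**Figure D1:**
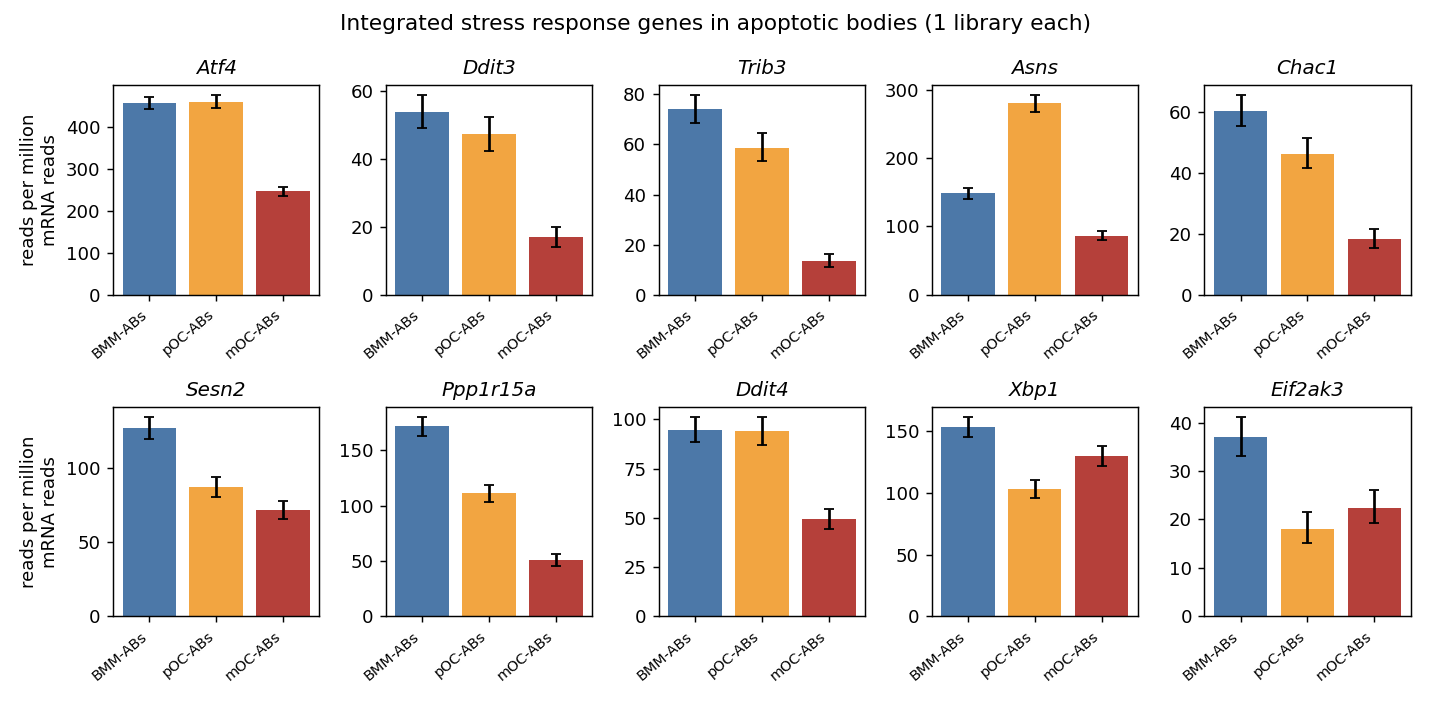
Level of each ISR gene in rpm (vertical axis, linear, starting at 0) in the BMM-AB, pOC-AB and mOC-AB library. Bars are single libraries and error bars are exact 95% Poisson intervals of the read count. Trib3 stood at 74.0, 58.6 and 13.4 rpm, Asns peaked in pOC-ABs at 279.9 rpm, and Xbp1 and Eif2ak3 were lowest in pOC-ABs. For Eif2ak3 the intervals of pOC-ABs and mOC-ABs overlap.

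Atf4, the transcription factor at the centre of the pathway, was the most abundant member. Its only listed transcript, Atf4-201 (chr15:80255184-80257541, plus strand), had 4145 reads (455.5 rpm) in BMM-ABs, 3398 reads (460.0 rpm) in pOC-ABs and 1894 reads (245.8 rpm) in mOC-ABs. BMM-ABs and pOC-ABs were thus at nearly 1 level and mOC-ABs below both. The log2 ratio was 0.014 in G1 with a 95% interval of -0.052 to 0.080, so that these 2 libraries were not distinguishable by counting error. It was -0.89 (-0.97 to -0.81) in G2 and -0.90 (-0.99 to -0.82) in G3.

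Ddit3 encodes CHOP, a C/EBP-family factor induced through ATF4 and linked to cell death under lasting stress. Its reads numbered 489 (53.7 rpm) in BMM-ABs, 348 (47.1 rpm) in pOC-ABs and 130 (16.9 rpm) in mOC-ABs. The mOC-AB library was the low one. The log2 ratio was -1.67 (-1.96 to -1.39) in G2 and -1.48 (-1.78 to -1.19) in G3, and in G1 it was -0.19 with an interval that reached 0 (-0.39 to 0.011). The G1 value depended on the transcripts summed, being -0.50 with protein-coding transcripts alone and 0.66 with overlapping lncRNA reads added.

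Trib3, a pseudokinase that binds ATF4 and restrains it, showed the widest spread of the 10. There were 673 reads (74.0 rpm) in BMM-ABs, 433 reads (58.6 rpm) in pOC-ABs and 103 reads (13.4 rpm) in mOC-ABs. The level in mOC-ABs was 0.181 times that in BMM-ABs and 0.228 times that in pOC-ABs, which are log2 ratios of -2.47 (-2.78 to -2.17) and -2.13 (-2.46 to -1.82). Among the 12713 genes with 20 reads or more, Trib3 lay at the 1.53 percentile of the log2 ratio both in G2 and in G3. In G1 the log2 ratio was -0.34 (-0.51 to -0.16).

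Asns, the asparagine synthetase that makes asparagine from aspartate and glutamine, was the member with a clear maximum in pOC-ABs. It had 1348 reads (148.1 rpm) in BMM-ABs, 2068 reads (279.9 rpm) in pOC-ABs and 667 reads (86.6 rpm) in mOC-ABs. Its log2 ratio in G1 was 0.92 (0.82 to 1.02), at percentile 93.9 of all genes. It was -1.69 (-1.82 to -1.57) in G3 and -0.78 (-0.91 to -0.64) in G2. Asns was the only member whose interval lay above 0 in G1.

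Chac1 encodes an enzyme that degrades glutathione and is induced by ATF4 and CHOP. Its single transcript had 550 reads (60.4 rpm) in BMM-ABs, 342 reads (46.3 rpm) in pOC-ABs and 142 reads (18.4 rpm) in mOC-ABs, a stepwise order with mOC-ABs well below the rest. The log2 ratio was -0.38 (-0.58 to -0.19) in G1, -1.71 (-1.99 to -1.44) in G2 and -1.33 (-1.62 to -1.04) in G3.

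Ppp1r15a encodes GADD34, the inducible subunit that brings protein phosphatase 1 to eIF2α and ends the response. It had 1563 reads (171.8 rpm) in BMM-ABs, 821 reads (111.1 rpm) in pOC-ABs and 392 reads (50.9 rpm) in mOC-ABs, with no overlap of the counting intervals of the 3 libraries. The log2 ratio was -0.63 (-0.75 to -0.51) in G1, -1.76 (-1.92 to -1.59) in G2 and -1.13 (-1.30 to -0.95) in G3.

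Sesn2 and Ddit4 are stress-induced inhibitors of the growth kinase complex mTORC1, Sesn2 as a leucine sensor and Ddit4 (REDD1) through the TSC complex. Sesn2 had 1160 reads (127.5 rpm) in BMM-ABs, 644 (87.2 rpm) in pOC-ABs and 552 (71.6 rpm) in mOC-ABs. Most of its difference thus lay between BMM-ABs and the others, at log2 ratios of -0.55 (-0.69 to -0.41) in G1, -0.83 (-0.98 to -0.68) in G2 and -0.28 (-0.45 to -0.12) in G3. Ddit4 had 861 reads (94.6 rpm) in BMM-ABs, 695 (94.1 rpm) in pOC-ABs and 381 (49.4 rpm) in mOC-ABs. As with Atf4, the first 2 libraries were not distinguishable, at a log2 ratio of -0.0082 (-0.15 to 0.14) in G1, and mOC-ABs were lower, at -0.94 (-1.11 to -0.76) in G2 and -0.93 (-1.11 to -0.75) in G3. Scaled to the mRNA and lncRNA reads together, pOC-ABs were below BMM-ABs for both genes, at -0.18 for Atf4 and -0.21 for Ddit4.

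The ER members had another order. Xbp1, a transcription factor that expands ER folding capacity, had 1398 reads (153.6 rpm) in BMM-ABs, 760 (102.9 rpm) in pOC-ABs and 1002 (130.04 rpm) in mOC-ABs. Eif2ak3, the kinase PERK, had 337 reads (37.0 rpm) in BMM-ABs, 134 (18.1 rpm) in pOC-ABs and 173 (22.5 rpm) in mOC-ABs. Both were highest in BMM-ABs and lowest in pOC-ABs. In G1 the log2 ratio was -0.58 (-0.71 to -0.45) for Xbp1 and -1.03 (-1.33 to -0.74) for Eif2ak3, which put Eif2ak3 at percentile 5.58 of all genes. In G3 Xbp1 was higher in mOC-ABs, at 0.34 (0.20 to 0.48), whereas the interval of Eif2ak3 included 0, at 0.31 (-0.026 to 0.64). In G2 the values were -0.24 (-0.36 to -0.12) for Xbp1 and -0.72 (-0.99 to -0.45) for Eif2ak3.

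**Figure D2:**
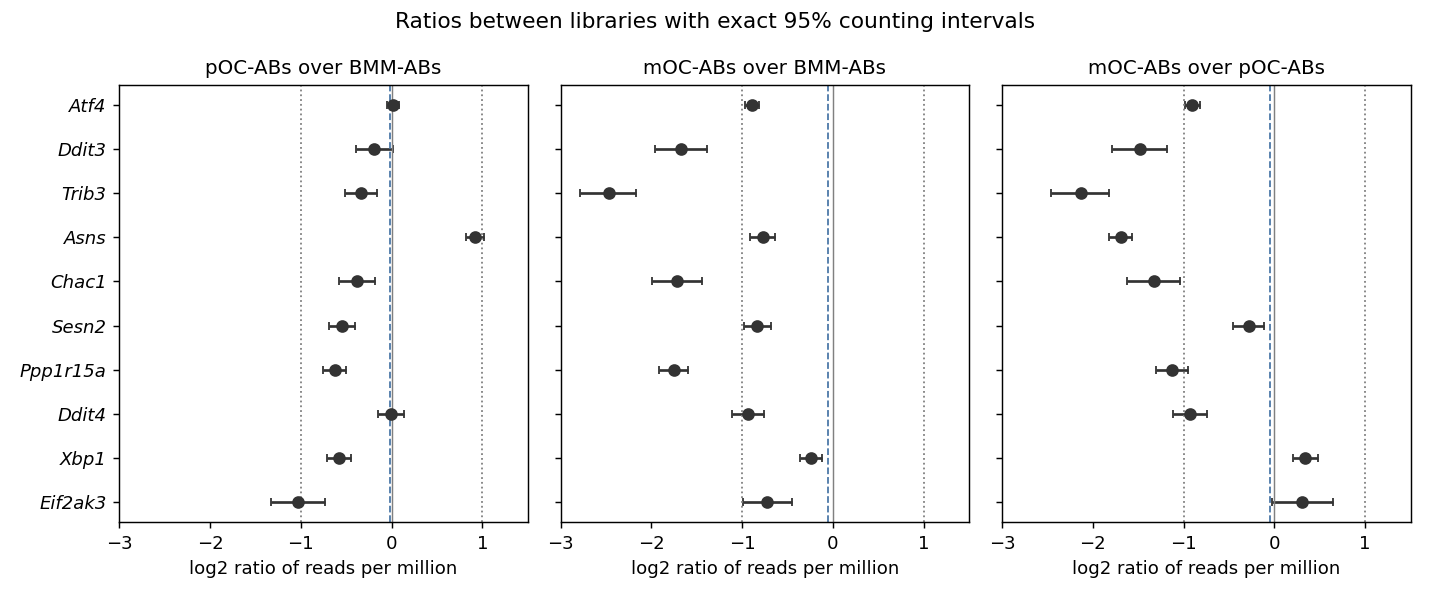
Log2 ratio of rpm (horizontal axis) for each ISR gene in the 3 comparisons, with exact 95% counting intervals. Dotted lines mark 2-fold, the grey line 0, and the dashed line the median of all 12713 genes. In mOC-ABs vs BMM-ABs all 10 points lie below 0, and in mOC-ABs vs pOC-ABs Xbp1 and Eif2ak3 alone lie above 0. Of all 12713 genes, 54.6% lie below 0 in mOC-ABs vs BMM-ABs and 54.4% in mOC-ABs vs pOC-ABs.

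With a ratio past 2-fold as the limit that the study also used, and without its adjusted p, 4 members were lower in mOC-ABs than in BMM-ABs (Trib3, Ppp1r15a, Chac1 and Ddit3) and none was higher, against 9.01% of all tested genes lower and 4.15% higher. In G3, 5 members were lower in mOC-ABs than in pOC-ABs (Trib3, Asns, Ddit3, Chac1 and Ppp1r15a) and none was higher, against 6.86% and 3.5% of all genes. In G1 only Eif2ak3 was past 2-fold, lower in pOC-ABs, against 6.06% of all genes lower and 4.87% higher, and with the deposited FPKM it was not, at a log2 ratio of -0.88. The median log2 ratio of the 10 members was -0.91 in G2, -1.03 in G3 and -0.36 in G1, and that of all tested genes was -0.054, -0.049 and -0.021. G2 and G3 contain the same mOC-AB library, so their counts are not separate evidence. The 5 members past 2-fold in G3 summed to 508.0 rpm in BMM-ABs, 543.1 rpm in pOC-ABs and 186.1 rpm in mOC-ABs. They were picked by their G3 ratio, so a sum more than 2-fold lower in mOC-ABs than in pOC-ABs follows from the choice.

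**Figure D3:**
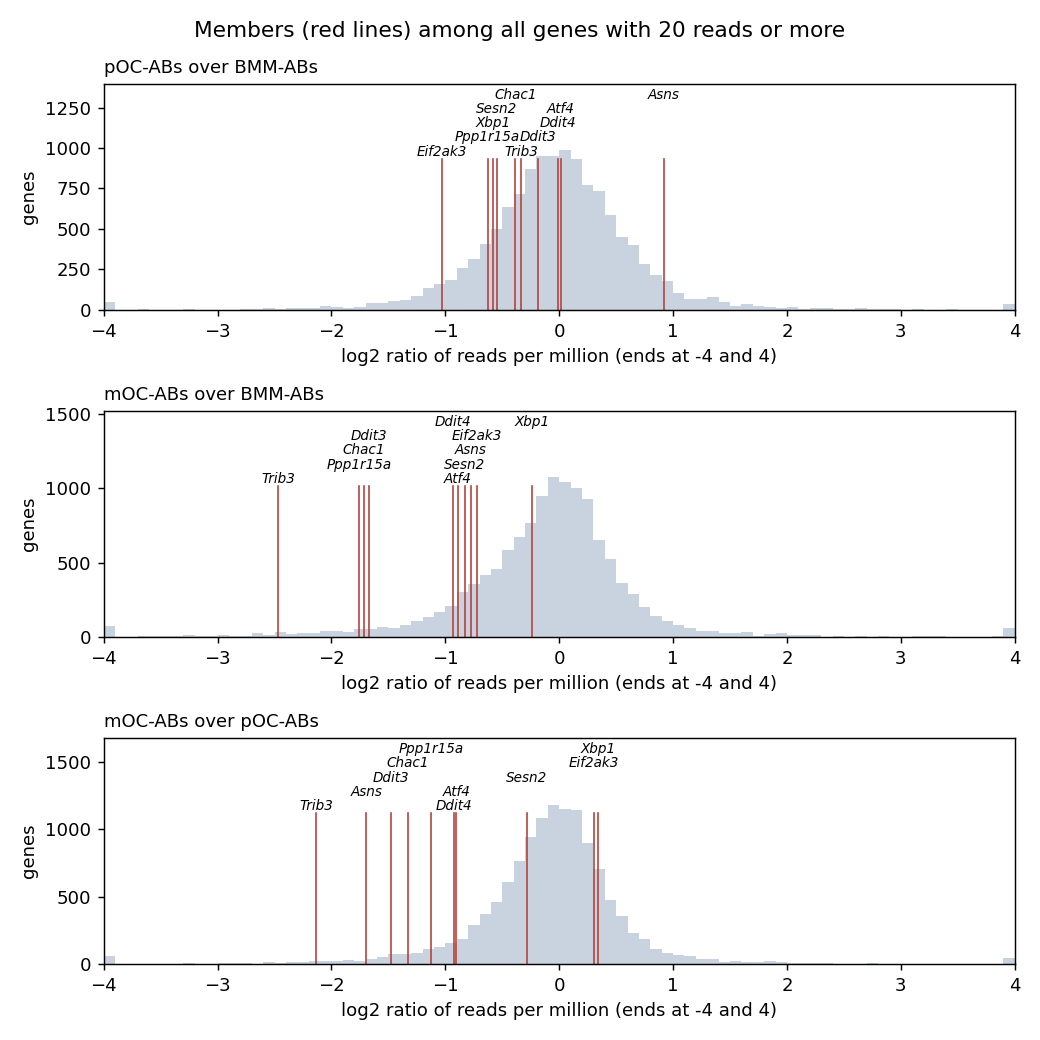
Histograms of the log2 ratio of rpm for the 12713 genes with 20 reads or more, with the 10 ISR genes as red lines, in the 3 comparisons. Values beyond -4 or 4 are drawn at the ends. In mOC-ABs vs BMM-ABs Trib3 lies farthest to the left at -2.47, followed by Ppp1r15a, Chac1 and Ddit3.

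Since the share of Atf4 itself was lower in mOC-ABs, the other 9 members were also set against Atf4 within each library, which needs no scaling between libraries. Reads of Trib3 per read of Atf4 numbered 0.162 (0.149 to 0.176) in BMM-ABs, 0.127 (0.115 to 0.141) in pOC-ABs and 0.0544 (0.0442 to 0.0663) in mOC-ABs. Ddit3 gave 0.118 (0.107 to 0.130), 0.102 (0.0915 to 0.114) and 0.0686 (0.0570 to 0.0820), and Chac1 gave 0.133 (0.121 to 0.145), 0.101 (0.0898 to 0.113) and 0.0750 (0.0628 to 0.0890), in the same order of libraries. Ppp1r15a gave 0.377 (0.356 to 0.400), 0.242 (0.224 to 0.261) and 0.207 (0.185 to 0.231). These 4 were lowest in mOC-ABs relative to Atf4, with intervals for pOC-ABs and mOC-ABs that overlapped for Ppp1r15a and not for the others. Ddit4 kept a nearly constant ratio to Atf4, at 0.208 (0.193 to 0.224), 0.205 (0.188 to 0.222) and 0.201 (0.180 to 0.225). The remaining members were not lowest in mOC-ABs relative to Atf4. For Asns the ratio was 0.325 (0.306 to 0.346) in BMM-ABs, 0.609 (0.576 to 0.643) in pOC-ABs and 0.352 (0.322 to 0.385) in mOC-ABs, so that the first and the last overlapped. Sesn2 gave 0.280 (0.262 to 0.299), 0.190 (0.174 to 0.206) and 0.291 (0.265 to 0.321), Xbp1 gave 0.337 (0.317 to 0.358), 0.224 (0.206 to 0.242) and 0.529 (0.490 to 0.571), and Eif2ak3 gave 0.0813 (0.0725 to 0.0909), 0.0394 (0.0329 to 0.0469) and 0.0913 (0.0777 to 0.107). These 3 were lowest in pOC-ABs.

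Levels of different genes were compared by FPKM summed over transcripts, so that length was taken into account. Atf4 was first in each library, at 264 FPKM in BMM-ABs, 267 FPKM in pOC-ABs and 143 FPKM in mOC-ABs, and Eif2ak3 was last in each, at 9.82, 5.32 and 6.09 FPKM. In BMM-ABs the order between them was Xbp1 (84.7 FPKM), Asns (77.6), Ppp1r15a (70.5), Ddit3 (61.1), Ddit4 (53.9), Trib3 (38.4), Chac1 (36.9) and Sesn2 (36.7). In mOC-ABs Xbp1 (65.1 FPKM) and Asns (44.5) still followed Atf4, and Trib3 had moved to the place before Eif2ak3, at 7.56 FPKM. Sesn2 (20.6 FPKM), Ppp1r15a (20.6) and Ddit3 (19.7) lay together in mOC-ABs, as did Trib3, Chac1 and Sesn2 in BMM-ABs. Even so Atf4 was at percentile 94.5 of the FPKM of all genes in mOC-ABs, while Trib3 stood at percentile 79.2 in BMM-ABs and 34.4 in mOC-ABs.

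Of the 28 transcripts, GENCODE M21 calls 19 protein-coding, 7 retained-intron and 2 processed transcripts, and 14 held at least 10% of their gene's reads in some library. Atf4, Chac1 (Chac1-201, chr2:119351229-119354381, plus strand), Sesn2 (Sesn2-201, chr4:132492032-132510501, minus strand) and Ddit4 (Ddit4-201, chr10:59949669-59951834, minus strand) each had 1 listed transcript. Trib3-201 (chr2:152337422-152344032, minus strand) held 98.1%, 94.5% and 95.1% of the Trib3 reads, and Eif2ak3-201 (chr6:70844515-70905245, plus strand) held between 93.2% and 94.2%. The split of a gene's reads among its transcripts is an estimate of the authors' pipeline.

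Asns reads were divided mainly between Asns-202 (chr6:7675169-7692871, minus strand) and Asns-201 (chr6:7675169-7693254, minus strand), which starts upstream of it. Asns-202 had 893 reads in BMM-ABs, 1485 reads in pOC-ABs and 437 reads in mOC-ABs, and Asns-201 had 426, 560 and 222. The maximum in pOC-ABs was thus seen for both forms, with log2 ratios in G1 of 1.03 (0.91 to 1.16) and 0.70 (0.51 to 0.88). For Ppp1r15a, Ppp1r15a-201 (chr7:45522917-45526268, minus strand) had 1172, 540 and 262 reads, and Ppp1r15a-202 (chr7:45522922-45526146, minus strand) had 391, 281 and 130. In G1 the log2 ratio was -0.82 (-0.97 to -0.67) for the first and -0.18 (-0.40 to 0.049) for the second, and in G3 they were close, at -1.10 (-1.32 to -0.89) and -1.17 (-1.48 to -0.87).

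Xbp1-201 (chr11:5520659-5525893, plus strand) held 85.2% of the Xbp1 reads in BMM-ABs, a like 86.1% in pOC-ABs and a larger 94.1% in mOC-ABs. The retained-intron form Xbp1-202 had 116 reads in BMM-ABs, 69 reads in pOC-ABs and 18 reads in mOC-ABs, the opposite order to Xbp1-201 between the last 2 libraries, since Xbp1-201 had 1191, 654 and 943. IRE1 activates Xbp1 by cutting out 26 bases, here in exon 4 of Xbp1-201 at chr11:5524279-5524304 on GRCm38, and this stretch is shown because it decides whether the active form can be read from the table.
Xbp1 bases removed by IRE1: cagcactcagactatgtgcacctctg
Of the 4 listed Xbp1 transcripts, 3 contain these bases and Xbp1-202 ends before them, and the shortest intron in any of the 4 is 300 bases. No listed transcript therefore reports the spliced form, and the level of Xbp1 given here says nothing about IRE1 activity.

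The Ddit3 transcripts differed in direction between BMM-ABs and pOC-ABs. Ddit3-201 (chr10:127290774-127296288, plus strand) had 415 reads in BMM-ABs, 239 reads in pOC-ABs and 102 reads in mOC-ABs, and Ddit3-203 had 21, 11 and 13. The retained-intron form Ddit3-202 (chr10:127290794-127294582, plus strand), which holds 98 bases of exon 1, all of exon 2 and 823 bases of intron 2 but no coding sequence, had 53 reads in BMM-ABs, 98 reads in pOC-ABs and 15 reads in mOC-ABs. Its share of the Ddit3 reads was 10.8% (8.22% to 13.9%), 28.2% (23.5% to 33.2%) and 11.5% (6.60% to 18.3%) in that order. In G1 the log2 ratio was -0.50 (-0.73 to -0.26) for Ddit3-201 and 1.19 (0.69 to 1.70) for Ddit3-202, with intervals that did not overlap. Of the 7 retained-intron forms of the members, 3 had their highest rpm in pOC-ABs and 4, Xbp1-202 among them, in BMM-ABs. Several of these forms had too few reads to order the libraries. Asns-204 had 7, 4 and 2 reads, Eif2ak3-202 had 7, 0 and 2, and Eif2ak3-203 had 1, 2 and 1. The share over all retained-intron transcripts was not computed. A further GENCODE entry with the symbol Ddit3, protein-coding and on the same strand, overlaps the counted gene by 2925 bases and had no value. Ddit3 also overlaps Mars, a tRNA synthetase gene on the opposite strand with 1696, 1098 and 1082 reads, by 68 bases. Ppp1r15a overlaps Tulp2, on the opposite strand and with no value here, by 717 bases. The counting is not stated to use strand.

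The lncRNA table held a further transcript at the same place. NONMMUT008077.2 (chr10:127290797-127292445, 1649 bases, with no strand given) covers 95 bases of exon 1 and 1554 bases of intron 1 of Ddit3-201 and none of its coding sequence. It had 528 reads in BMM-ABs, 1011 reads in pOC-ABs and 251 reads in mOC-ABs, which is more than the whole of Ddit3 in the mRNA table in each library. These are 58.0, 136.9 and 32.6 rpm. Its log2 ratio was 1.24 (1.08 to 1.39) in G1, with pOC-ABs higher, and it was -0.83 (-1.06 to -0.61) in G2 and -2.07 (-2.28 to -1.87) in G3. Adding it to Ddit3 gave 1017, 1359 and 381 reads and log2 ratios of 0.72 (0.60 to 0.84) in G1, -1.18 (-1.35 to -1.01) in G2 and -1.90 (-2.06 to -1.73) in G3. The order of BMM-ABs and pOC-ABs for Ddit3 thus changed with the table used, and mOC-ABs were lowest either way. All these levels are scaled to mRNA reads alone, whereas lncRNA reads as a whole were more frequent in pOC-ABs. They made up 37.7% of the mRNA and lncRNA reads there, against 28.5% for BMM-ABs and 33.3% for mOC-ABs. The ratios of NONMMUT008077.2 and of the sum thus include this general shift, which the intervals do not cover. Ratios scaled to the lncRNA reads were not computed. A second transcript, NONMMUT008078.2 (chr10:127292488-127295802), which spans exons 2 and 3 and parts of intron 1 and exon 4, had 63, 28 and 16 reads.

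**Figure D4:**
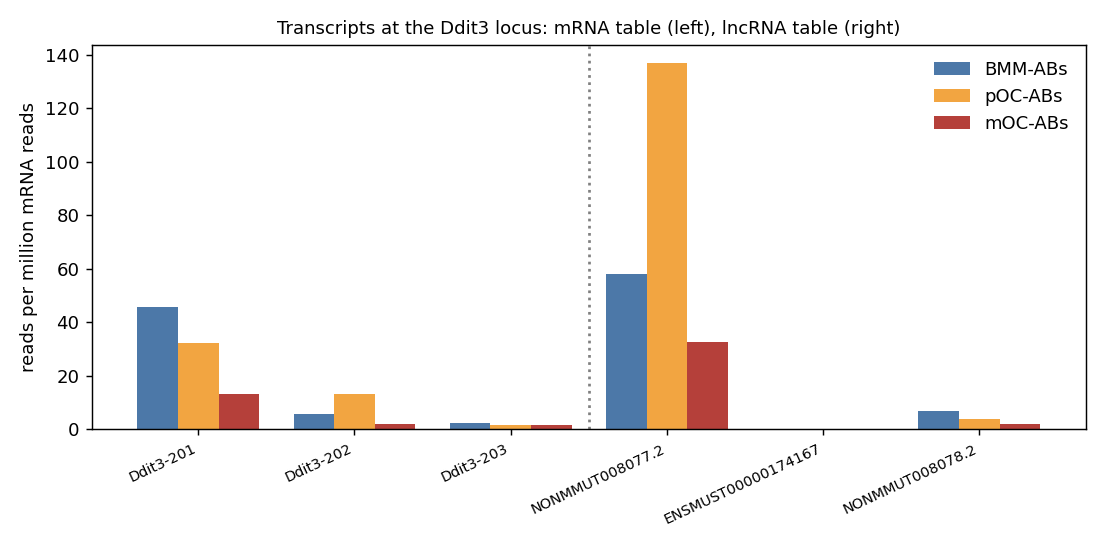
Level in rpm (vertical axis) of the transcripts at the Ddit3 locus, 3 from the mRNA table left of the dotted line and 3 from the lncRNA table right of it, with a bar for each library. Ddit3-202 and NONMMUT008077.2 peak in pOC-ABs, at 98 and 1011 reads, whereas Ddit3-201 is highest in BMM-ABs at 415 reads.

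Other lncRNA table transcripts over the members were sparse. In all, 7 of them overlapped 4 members. ENSMUST00000131733 (Gm12981) within the span of Sesn2 had 24 reads in BMM-ABs, 24 reads in pOC-ABs and 15 reads in mOC-ABs, and NONMMUT057356.2 and NONMMUT057355.2 within Eif2ak3 had 7, 7 and 0 and 13, 8 and 3 reads. ENSMUST00000174167 (Gm4189) beside Ddit3 had 1, 2 and 1, and NONMMUT121779.1 over Asns had 0, 0 and 3. Of the 1372 circRNAs listed, 0 were hosted by a member. Retained-intron transcripts made up 1.64%, 2.11% and 0.846% of the members' reads, and 5.80%, 4.94% and 4.39% over all protein-coding genes.

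The transcripts with the most reads were also described by sequence features. The members were picked as ISR genes and upstream reading frames are a known trait of Atf4, so that feature is not independent of the choice. An ATG upstream of the coding start, the feature by which Atf4 escapes translational control, was present in the 5′ UTR of 7 of the 10 members and of 49.6% of 9972 genes. Atf4, Ppp1r15a and Eif2ak3 had 3 each, Ddit3 had 2, Asns, Sesn2 and Xbp1 had 1, and Trib3, Chac1 and Ddit4 had none. The member transcripts were short, with a median of 2021 bases against 2947 bases for all genes, and had a median of 4 exons against 9. Their median 5′ UTR was longer, at 204.5 bases against 166 bases. The ATTTA pentamer of unstable mRNAs occurred in the 3′ UTR of 5 members, with 4 copies in Ppp1r15a, against 66.8% of all genes.

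Other genes of the pathway were taken from 7 lists with 115 tested genes. Past 2-fold in G2 were 22 genes lower and 1 higher, against 9.01% and 4.15% of all genes. In G3 15 were lower and 1 higher, against 6.86% and 3.5%. In G1 2 were lower and 2 higher, against 6.06% and 4.87%. Genes of amino acid supply that ATF4 is known to control were the list with the most. Of 20 tested, 10 were past 2-fold lower in G2 and 9 in G3, against 9.01% and 6.86% of all genes. None was past 2-fold higher in G2 or G3. The median log2 ratio was -0.99 in G2, -0.86 in G3 and -0.12 in G1.

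Within that list, Slc7a5, the light chain of a leucine transporter, had 1298 reads in BMM-ABs, 635 reads in pOC-ABs and 253 reads in mOC-ABs, at a log2 ratio of -2.12 (-2.32 to -1.92) in G2. Mthfd2, a mitochondrial enzyme of folate metabolism, had 2074, 1554 and 581 reads, at -1.60 (-1.73 to -1.46) in G2 and -1.48 (-1.62 to -1.34) in G3. Slc1a4, a carrier of neutral amino acids, had 147, 84 and 42 reads.

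Cth, which makes cysteine from cystathionine, had 73 reads in BMM-ABs, 231 reads in pOC-ABs and 29 reads in mOC-ABs. Its log2 ratio was 1.96 (1.58 to 2.36) in G1 and -3.05 (-3.67 to -2.49) in G3. Aldh1l2, another mitochondrial folate enzyme, had 1418, 1819 and 457 reads, at -2.05 (-2.20 to -1.90) in G3. Both genes, like Asns, were thus highest in pOC-ABs. Slc6a9, a glycine transporter, was the gene of this list past 2-fold lower in G1, at -1.01 (-1.23 to -0.79). Besides Cth, Cbs was past 2-fold higher in G1, at 1.04, with few reads (6, 10 and 8) and an interval that included 0 (-0.56 to 2.78). The 2 genes of the list with the most reads, Shmt2 and Psat1 of serine and glycine metabolism, were not past 2-fold, at -0.54 (-0.61 to -0.48) and -0.45 (-0.52 to -0.39) in G2.

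Among 9 tested partners and other factors of the ISR, 2 were past 2-fold lower in G2 and 3 in G3, against 9.01% and 6.86% of all genes. Atf3, a repressor induced with Ddit3, had 2312 reads in BMM-ABs, 1194 reads in pOC-ABs and 415 reads in mOC-ABs, a log2 ratio of -2.24 (-2.39 to -2.09) in G2 and -1.59 (-1.75 to -1.42) in G3. Atf5, a factor translated under the same control as ATF4, had 704, 982 and 268 reads and was highest in pOC-ABs, at 0.78 (0.64 to 0.92) in G1 and -1.93 (-2.13 to -1.74) in G3. Nupr1, a small stress-induced chromatin protein, had 617, 556 and 279 reads. Nfe2l2, which encodes the antioxidant factor NRF2, had 1803, 1624 and 1284 reads and was not past 2-fold in any comparison.

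Of 15 other stress targets of ATF4 and CHOP, 5 were past 2-fold lower in G2 and 3 in G3, against 9.01% and 6.86% of all genes. Gdf15, a secreted stress cytokine, had 295 reads in BMM-ABs, 210 reads in pOC-ABs and 75 reads in mOC-ABs, at -1.74 (-2.12 to -1.37) in G2. Gadd45a, a growth arrest gene, had 145, 112 and 49 reads. Ndrg1, a gene induced by hypoxia and other stresses, had 5623, 2720 and 2026 reads and was lower in G2 at -1.23 (-1.31 to -1.16). Cdkn1a, the cell cycle inhibitor p21, had 2983, 3765 and 1947 reads and was past 2-fold lower in G3 alone, at -1.01 (-1.09 to -0.93). Sqstm1, the autophagy receptor p62 and the gene of the list with the most reads, was at -0.29 (-0.34 to -0.25) in G2.

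The lists of genes that act before ATF4, of tRNA synthetases and of mTORC1 regulators held few or no genes past 2-fold. Of all genes, 6.06% were lower in G1, 9.01% in G2 and 6.86% in G3, so lists of 12 or 20 genes would hold few in any case. Of 12 kinases, phosphatase subunits and factors around eIF2α, none was lower past 2-fold in any comparison, and the median log2 ratio in G1, G2 and G3 was 0.30, 0.33 and 0.039. Ppp1cc, a catalytic subunit of protein phosphatase 1, was higher, with 196 reads in BMM-ABs, 215 reads in pOC-ABs and 521 reads in mOC-ABs, and Ppp1r15b, the constitutive counterpart of Ppp1r15a, had 1833, 849 and 889. The 20 cytosolic aminoacyl-tRNA synthetases, several of which ATF4 can induce, held none past 2-fold, at medians of 0.17 in G1, -0.28 in G2 and -0.47 in G3. Vars and Eprs, those with the most reads, were at -0.27 (-0.33 to -0.21) and -0.29 (-0.35 to -0.22) in G2. The 12 mTORC1 regulators also held none, with Mtor at -0.28 (-0.38 to -0.19) and Rptor at -0.25 (-0.37 to -0.13) in G2.

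Of the ER sensors and targets of XBP1 and ATF6, 27 genes were tested. Their median log2 ratio was much the same in G1 (-0.61) and G2 (-0.60) and near 0 in G3 (-0.040). In G2 5 were lower past 2-fold, against 9.01% of all genes. Among them Ern1, which encodes IRE1, had 979 reads in BMM-ABs, 431 reads in pOC-ABs and 358 reads in mOC-ABs. Derl2 had 284, 151 and 95 and Edem2 had 519, 271 and 214, where both are factors of ER-associated degradation. Sel1l, of the same process, had 998, 404 and 418 reads and was the gene of the list past 2-fold in G1, at -1.0 (-1.17 to -0.84). In G1 6.06% of all genes were lower. In G3 none of the list was past 2-fold, against 6.86% of all genes lower and 3.5% higher. The ER chaperones Calr and Canx were at -0.45 (-0.52 to -0.38) and -0.40 (-0.48 to -0.33) in G1.

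**Figure D5:**
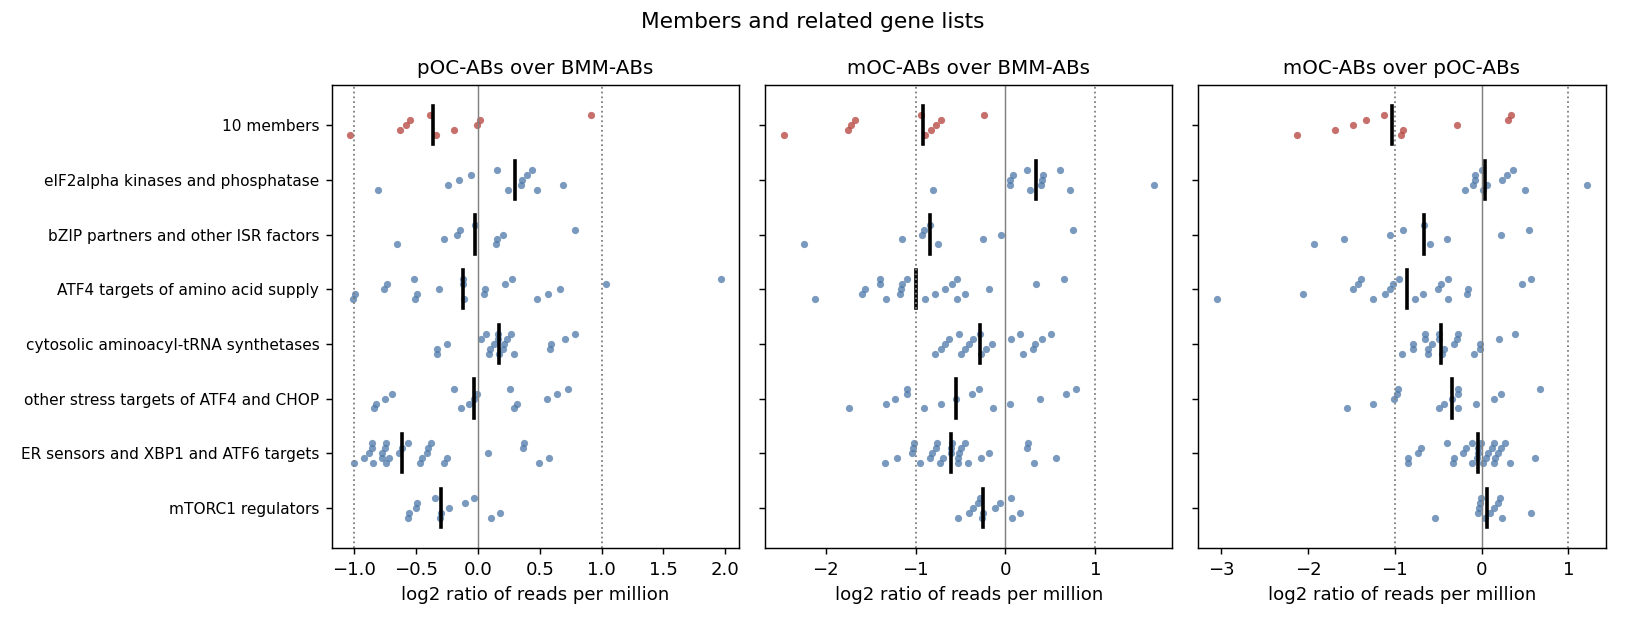
Log2 ratio of rpm (horizontal axis, different range in each panel) of each tested gene of the 10 members and of the 7 pathway lists in the 3 comparisons, with black bars for the medians and dotted lines at 2-fold. In mOC-ABs vs pOC-ABs the medians of the members and of the amino acid supply genes are -1.03 and -0.86, and that of the ER sensors and targets is -0.040.

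Cell type markers moved across the same libraries. Osteoclast markers, 8 of 10 with 20 reads or more, summed to 345 rpm in BMM-ABs, 581 rpm in pOC-ABs and 1870 rpm in mOC-ABs, with Nfatc1, the master factor of osteoclasts, at 2566, 2772 and 8463 reads and Calcr giving no value. All 8 were past 2-fold higher in G2, against 4.15% of all genes, and Itgb3, under the read minimum, had 6, 3 and 0 reads. Macrophage markers summed to 5896, 2801 and 1817 rpm, led by Lyz2 at 28844, 9854 and 3170 reads. Of 8 tested, 7 were past 2-fold lower in G2, against 9.01% of all genes. Cd68 was not, at 729, 649 and 656 rpm, and Csf1r was higher in mOC-ABs (506 rpm) than in pOC-ABs (357 rpm). Plasma and B cell markers summed to 250, 103 and 31.7 rpm, led by Ighm at 241, 90.6 and 20.5 rpm and followed by Sdc1 at 8.57, 11.6 and 10.5 rpm, while Mzb1 and Ms4a1 gave no value. T cell markers summed to 8.05 to 10.8 rpm, endothelial markers to at most 6.10 rpm, stromal and osteoblast markers to at most 4.87 rpm, and erythroid markers to at most 0.541 rpm, and 0 of 7 neutrophil markers had reads. The lncRNA share of the mRNA and lncRNA reads was lowest in BMM-ABs (28.5%) and highest in pOC-ABs (37.7%), with 33.3% in mOC-ABs. The part of these differences in the levels of the ISR genes was not tested.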

How the data were processed

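The submitters' processing notes name FastQC, HISAT2, StringTie and GRCm38. Versions, the annotation and the counting settings are not given in the sources used here. The study's methods describe paired-end libraries of poly-T purified AB RNA. The authors deposited read counts per transcript and FPKM in the mRNA and lncRNA tables, with a transcript length in the lncRNA table, and junction read counts and a scaled junction signal (SRPBM) for circRNAs. Columns carry hours, 0, 24 and 72, and were assigned by RANKL time, with 0 h taken as BMM-ABs. No per-sample column was left out (0 unused).

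Transcripts were matched to GENCODE M21 by identifier (56440 of 56651, and 211 without a match stayed in the library totals), and counts were summed per gene. Ratios of rpm, the reads scaled to 1000000 mRNA reads, carry exact binomial (Clopper-Pearson) 95% intervals, levels exact Poisson intervals. Reads have no molecular identifiers, so intervals cover counting error only. With 1 library per group no test and no p-value was computed. The limit was 2-fold among genes with 20 reads or more over the 3 libraries. 3 reads are 0.330 rpm in BMM-ABs, 0.406 rpm in pOC-ABs and 0.389 rpm in mOC-ABs. The members, the pathway lists and the markers were chosen with earlier results of these data known. Named were all members, their transcripts with at least 10% of a gene's reads in some library, and from each pathway list the 2 genes with the most reads and up to 3 per comparison past 2-fold with at least 100 reads, by size. Xbp1-202, Cbs, Itgb3, Cd68, Csf1r, Sdc1 and the markers without a value were named after their values were seen. Promoters came from RefSeq (GRCm38.p6) and all 10 members matched. Alternatives were other library scalings, FPKM, other transcript sums, a pseudocount of 1, other read minimums and a 1.5-fold limit. Interval code was tested on simulated data. Python 3.11.15, numpy 2.4.6, pandas 2.3.3, scipy 1.17.1 and matplotlib 3.10.9 were used.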

Additional observations from a re-analysis of the deposited data

Results flagged for a closer look

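Signal was found over members in the lncRNA table, outside the mRNA table that the comparisons used, above the 3 reads that a count of 0 allows. At Ddit3, NONMMUT008077.2 had 528 reads in BMM-ABs, 1011 reads in pOC-ABs and 251 reads in mOC-ABs, and NONMMUT008078.2 had 63, 28 and 16 reads. Over Sesn2, ENSMUST00000131733 had 24 reads in BMM-ABs, 24 reads in pOC-ABs and 15 reads in mOC-ABs. Over Eif2ak3, NONMMUT057356.2 had 7 reads in BMM-ABs and 7 in pOC-ABs, and NONMMUT057355.2 had 13 and 8. The lncRNA table gives no strand, so reads of a member and of a transcript that overlaps it cannot be told apart.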

How the results depend on the processing

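No paired analysis was possible because each group is 1 library and the labels give no replicate numbers, and for the same reason no library could be left out. Counts of members past 2-fold moved in G1: the number higher went from 0 to 1 (Asns) with only the transcript with the most reads and with a 1.5-fold limit, and the number lower went from 1 (Eif2ak3) to 0 with the deposited FPKM, with overlapping lncRNA reads added and with a pseudocount of 1, and to 2 with a 1.5-fold limit. In G2 the number lower went from 4 to 9 with a 1.5-fold limit, which 19.5% of all genes passed. The cause was not tested. Changes of no more than 1.5 times in a count were from 4 to 5 lower in G2 with the total of both tables and from 5 to 7 lower in G3 with a 1.5-fold limit. The median of the members ranged from -0.56 (total of both tables) to -0.30 in G1, from -1.01 to -0.87 in G2 and from -1.03 to -0.93 in G3. Of 240 recomputed log2 ratios of single members, 219 stayed within the counting interval and 21 moved out of it. Part of the 219 could not move. For the 4 members with 1 listed transcript, the choice of transcripts could not change the ratio, and FPKM gave the same ratio to rounding. Added lncRNA reads could not change the members without an overlapping lncRNA transcript. In 3 the sign changed, all in G1: Atf4 to -0.18 with the reads of both tables as library total, Ddit3 to 0.66 with overlapping lncRNA reads added, and Ddit4 to 0.017 with upper quartile scaling. The total of both tables moved the median of all genes by -0.20 in G1, -0.10 in G2 and 0.099 in G3. With a minimum of 100 reads, 6.58% of genes were lower in G2 and 4.06% in G3. The share of Xbp1 reads without the bases that IRE1 removes was not run, because no listed transcript lacks them by splicing.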
